A study of Mus musculus with 10 samples.

Results

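Complement is a cascade of plasma and tissue proteins that tags microbes and damaged cells for uptake or lysis, and 9 of its genes were examined here, of 19214 gene symbols listed in the series: *C3*, *C4b*, *Cfb*, *C1s*, *C1ra*, *Serping1*, *C1qa*, *C1qb* and *C1qc*. They were selected on measured values, because *C3* stood far below muscle tissue in sorted smooth muscle cells (SMCs), and the other 8 were chosen as its partners and regulators with results of these libraries in view. All 9 were listed in each of the 3 deposited tables, and none was lost to a filter. The data are 10 RNA-seq libraries of mouse intestine, 1 per condition and without replicates, so every value below is a description with no test and no error. The libraries were made from oligo(dT)-selected RNA of animals on a C57BL/6 background at 4 weeks of age.

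The sorted cells were identified by green fluorescent reporters. PDGFRα+ cells of the colonic mucosa, of the colonic muscle and of the jejunal muscle came from PdgfraeGFP/+ mice, in which 1 *Pdgfra* allele carries the reporter. Interstitial cells of Cajal (ICC) of colon and jejunum came from KitcopGFP/+ mice, which carry the reporter at 1 *Kit* allele. SMCs of colon and jejunum came from smMHCCre-eGFP/+ mice, in which the smooth muscle myosin promoter drives Cre and eGFP, and cells of many mice were pooled. The unsorted references were colonic mucosa of PdgfraeGFP/+ mice and smooth muscle (SM) tissue of colon and jejunum, which the labels list under KitcopGFP/+ while the study's methods describe smMHC Cre-eGFP/+ mice. Cell type and sorting therefore change together in each comparison of cells with tissue and cannot be told apart. For SMCs and PDGFRα+ cells of the muscle the labelled reporter strain changes with them, whereas mucosal PDGFRα+ cells and mucosa, and ICC and SM tissue, share theirs by the labels.

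In the classical pathway the recognition molecule C1q, built from the chains of *C1qa*, *C1qb* and *C1qc*, binds its target and activates the proteases encoded by *C1ra* and *C1s*. These cleave C4, encoded by *C4b*, and C2, which leads to the cleavage of C3, where all pathways of complement meet. *Cfb* encodes factor B, the protease partner of C3 in the alternative pathway, and *Serping1* encodes C1 inhibitor, which inactivates the C1r and C1s proteases. The liver makes most complement of plasma, whereas in tissues C1q is known as a product of macrophages and the C1 proteases and C1 inhibitor are made by fibroblasts among others.

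Before levels are given, 1 library has to be set apart. The library labelled jejunal PDGFRα+ cells had 34.0 FPKM of *Pdgfra*, against 57.0 FPKM in jejunal SM tissue, whereas colonic PDGFRα+ cells had 229.9 FPKM against 47.4 FPKM in colonic SM tissue and mucosal PDGFRα+ cells 228 FPKM against 11.0 FPKM in mucosa. FPKM count fragments per kilobase of transcript, scaled to the number of fragments mapped. The same jejunal library kept 7 SMC markers at a median of 107% of tissue, 9 mesothelial markers at 102% and 13 macrophage markers at 134%. Medians were 198% for 8 endothelial, 91.1% for 7 neuron, 61.9% for 6 ICC and 194% for 5 glia markers. The 5 PDGFRα+ cell markers, *Pdgfra* among them, had a median of 107%, with a range from 59.7% to 196%. Further from tissue were 10 fibroblast matrix genes, at a median of 263%, and 5 epithelial markers, at 2413%, with *Epcam* at 14.1 FPKM, against 0.643 FPKM in jejunal SM tissue. It is called by its label below, and results are given with and without it. In the other sorted libraries the defining markers followed the labels: *Kit* was at 792 and 468 FPKM in colonic and jejunal ICC, against 41.4 and 29.4 FPKM in SM tissue, and *Myh11* at 3807 and 3773 FPKM in colonic and jejunal SMCs, against 3168 and 3370.4 FPKM. Mucosal PDGFRα+ cells still held *Epcam*, an epithelial marker, at 144 FPKM, against 595 FPKM in mucosa. Levels summed over all genes lay between 298216 and 384512 FPKM, and the number of reads behind a value is not in the files.

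The order of the 10 libraries differed between the 9 genes. *C3* was highest in the library labelled jejunal PDGFRα+ cells and in SM tissue of both organs. *C1s*, *C1ra* and *Serping1* were highest in mucosal and colonic PDGFRα+ cells. The 3 C1q chains, *C4b* and *Cfb* were highest in the library labelled jejunal PDGFRα+ cells and in mucosa. Over the 10 libraries r of log2(FPKM + 1) with the C1q chains was 0.93 to 0.94 for *Cfb* and 0.85 to 0.86 for *C4b*, whereas with *C3* it was 0.45 for *Cfb* and 0.55 for *C4b*. Without the library labelled jejunal PDGFRα+ cells, r with the C1q chains was 0.92 to 0.93 for *Cfb* and 0.79 for *C4b*. With *C3* it was then 0.28 for *Cfb* and 0.33 for *C4b*. Together the 9 genes made up 0.662% of all FPKM in colonic PDGFRα+ cells and 0.342% in mucosal PDGFRα+ cells, against 0.191% in colonic SM tissue and 0.0808% in mucosa. *Serping1*, at 2035 FPKM, held most of the colonic sum, with *C1s* next at 140.3 FPKM. In the mucosal sum *Serping1* had 602 FPKM and *C1s* 417 FPKM. In each of these PDGFRα+ libraries 6 of the 9 genes were below tissue. The share was lowest in colonic SMCs, at 0.0243%, but SMC values chose the genes, so nothing is read from it.

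**Figure D1:**
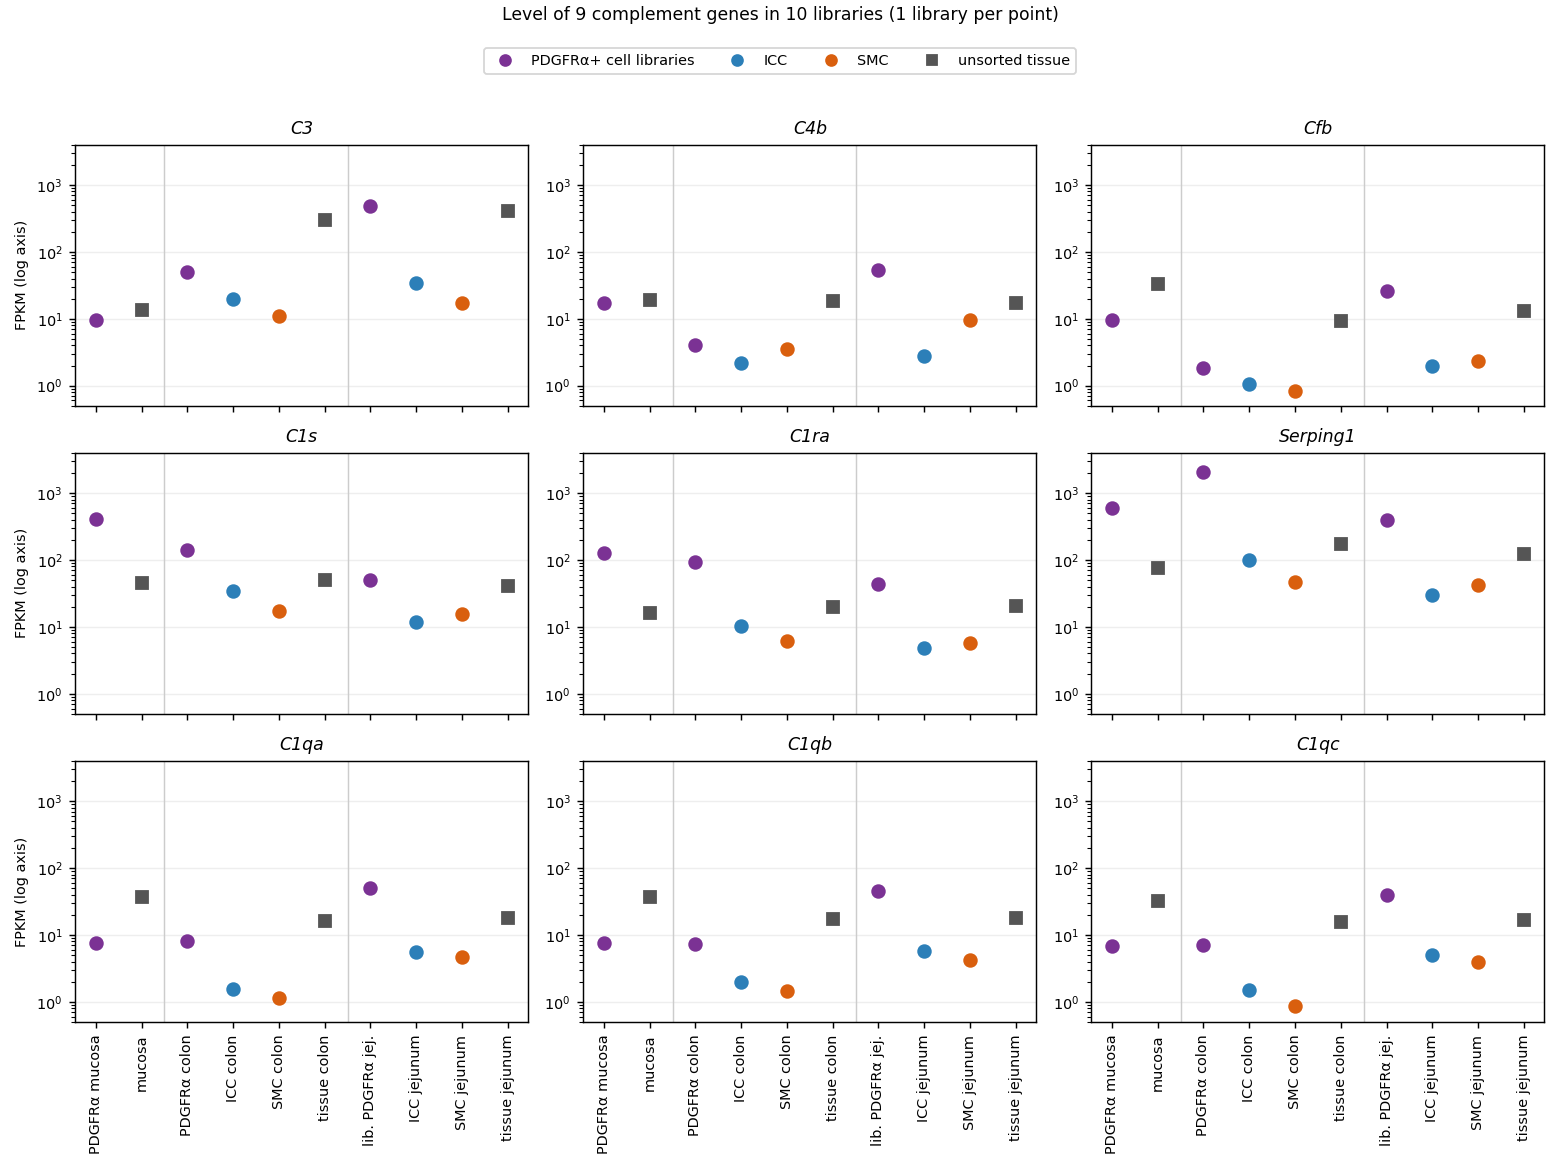
FPKM of each gene (log axis) in the 10 libraries, with PDGFRα+ cell libraries in purple, ICC in blue, SMCs in orange and unsorted tissue as grey squares, and "lib. PDGFRα jej." for the library labelled jejunal PDGFRα+ cells; each point is 1 library, so there are no error bars. *C3* reached 304 FPKM in colonic SM tissue and at most 50.5 FPKM in the colonic sorted cells, while *Serping1* reached 2035 FPKM in colonic PDGFRα+ cells.

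The contrast that selected *C3* is given first, as a description only. *C3* had 10.9 FPKM in colonic SMCs, against 304 FPKM in colonic SM tissue, and 17.3 FPKM in jejunal SMCs, against 406 FPKM in jejunal SM tissue. On the scale used throughout, log2 of the ratio of FPKM + 1, the differences were -4.68 in colon and -4.47 in jejunum. In jejunum this was the lowest of 12460 genes that reached 1 FPKM in SMCs or in tissue, followed by *Gpm6a* at -4.26. *Gpm6a* encodes a membrane glycoprotein of neurons and is also on the list of mesothelial markers used here. In colon *C3* came second of 12772 genes, after *2210415F13Rik* at -4.85 and before the carboxylesterase gene *Ces1d* at -4.45. All 9 genes were lower in SMCs than in tissue in both organs. At least 4-fold lower were 6 of 9 in colon (5.3% of all genes were) and 2 of 9 in jejunum, *C3* and *Cfb* (3.48% of all genes). As this contrast chose the genes, nothing is read from these counts. In bulk libraries fewer cells of a type and less RNA per cell cannot be told apart, here and in all that follows.

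*C3* encodes the central component, whose cleavage marks surfaces for uptake. In colon none of the 3 sorted libraries came near tissue: *C3* was at 50.5 FPKM in PDGFRα+ cells, 19.5 FPKM in ICC and 10.9 FPKM in SMCs, against 304 FPKM in SM tissue. The highest of them, PDGFRα+ cells, thus held 16.6% of the tissue level, a log2 ratio of -2.56. In jejunum *C3* was at 33.8 FPKM in ICC, which is 8.33% of tissue, and at 17.3 FPKM in SMCs. The library labelled jejunal PDGFRα+ cells had 484 FPKM, 119% of tissue, and without that library no sorted population of the muscle layer exceeded 16.6% of the tissue of its organ. In the mucosa *C3* was low in both libraries, at 9.75 FPKM in PDGFRα+ cells, against 13.6 FPKM in unsorted mucosa. *C3* ranked 103rd of all genes in colonic SM tissue and 72nd in jejunal SM tissue, whereas it ranked 6093rd in mucosal PDGFRα+ cells.

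*C4b* and *Cfb*, which act on either side of C3, had the same order of tissue over sorted cells in colon at lower levels. *C4b* was at 3.99 FPKM in colonic PDGFRα+ cells, 2.17 FPKM in ICC and 3.59 FPKM in SMCs, against 18.6 FPKM in colonic SM tissue. *Cfb* was at 1.86, 1.06 and 0.821 FPKM in the same 3 cell libraries, against 9.23 FPKM in tissue. In contrast to *C3*, both were as high in mucosa as in muscle or higher: *C4b* had 17.1 FPKM in mucosal PDGFRα+ cells, against 18.9 FPKM in mucosa, and *Cfb* had 9.46 FPKM against 33.5 FPKM. In jejunum *C4b* was at 2.76 FPKM in ICC and 9.43 FPKM in SMCs, against 17.1 FPKM in SM tissue, so that jejunal SMCs kept 55.3% of it. *Cfb* was at 2.00 FPKM in jejunal ICC and 2.38 FPKM in jejunal SMCs, against 13.3 FPKM in SM tissue. The library labelled jejunal PDGFRα+ cells exceeded tissue for both, with 53.0 FPKM of *C4b* and 25.6 FPKM of *Cfb*. The locus the files give for *C4b* also covers its neighbours, and *C4a* is a near-identical copy, so how reads were split between them is uncertain. *C4a* was listed at 0.302 to 1.81 FPKM.

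Mesothelial markers were low in the same libraries as *C3*. In colonic PDGFRα+ cells, ICC and SMCs, *C3* stood at 16.6%, 6.43% and 3.58% of tissue, and the 9 mesothelial markers at medians of 10.4%, 8.16% and 4.23%. *Upk3b*, a uroplakin of the mesothelial surface, was at 10.3%, 6.65% and 4.23% of tissue in these libraries. In jejunal ICC and SMCs *C3* was at 8.33% and 4.27% of tissue and *Upk3b* at 9.99% and 5.80%. The mesothelial markers summed to 26.4, 22.2 and 11.1 FPKM in colonic PDGFRα+ cells, ICC and SMCs, against 239 FPKM in colonic SM tissue, and to 40.1 and 23.2 FPKM in jejunal ICC and SMCs, against 356 FPKM in jejunal SM tissue, with none at 0. *Krt8* and *Krt19* of this list are epithelial genes too. In the library labelled jejunal PDGFRα+ cells they summed to 449.8 FPKM. Neuron markers were also low in the colonic sorted libraries, with medians of 6.08%, 10.5% and 5.93% of tissue in PDGFRα+ cells, ICC and SMCs. In the same order, medians were 15.4%, 13.9% and 11.1% for 5 glia markers and 18.9%, 9.67% and 7.27% for 8 endothelial markers. The glia and endothelial medians stood above the mesothelial ones in each of these libraries. The part of any of these cell types in the *C3* levels was not tested. *Upk3b*, *Wt1*, *Lrrn4* and *Bnc1* were not listed in the mucosal table.

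**Figure D2:**
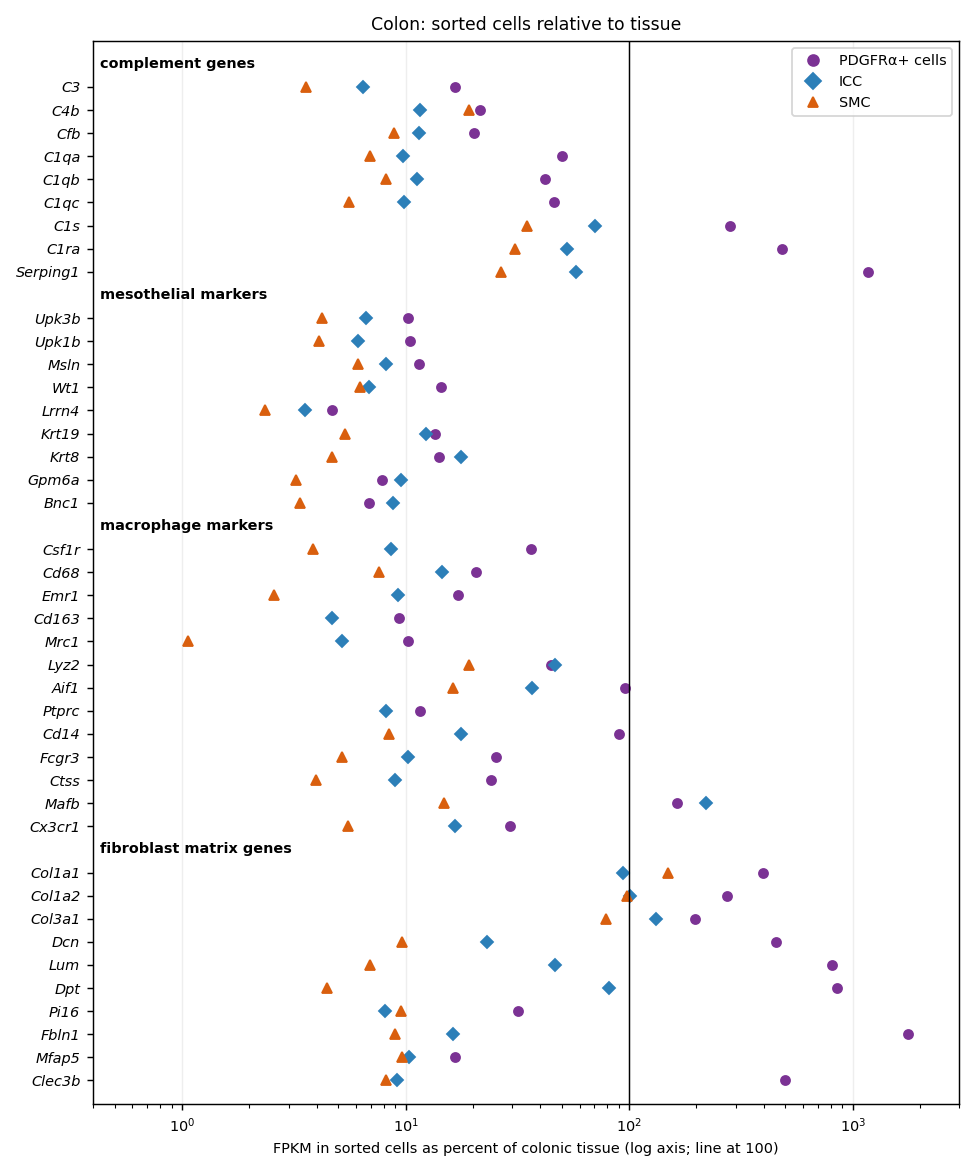
FPKM in colonic PDGFRα+ cells (purple circles), ICC (blue diamonds) and SMCs (orange triangles) as percent of colonic SM tissue (log axis, line at 100%), for the 9 complement genes and 3 marker lists; each point is 1 library, and *Cd163* and *Ptprc*, at 0 in SMCs, have no triangle. *C3* lay at 16.6% or less in all 3, and *C1s*, *C1ra* and *Serping1* lay above 100% in PDGFRα+ cells alone.

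The genes whose pattern was most like that of *C3* were sought among 8957 symbols in all tables with 10 FPKM or more in a library, by Pearson's r of log2(FPKM + 1) over the 10 libraries. They were *Serpini1*, which encodes neuroserpin (r = 0.99), *Gpm6a* (r = 0.98), *Npy*, which encodes neuropeptide Y (r = 0.98), *Pkhd1l1* (r = 0.97) and *Sostdc1*, a secreted antagonist of BMP and Wnt signals (r = 0.97). Without the library labelled jejunal PDGFRα+ cells, over 9 libraries, r was between 0.97 and 1.00 for all 5. *Pkhd1l1* encodes a membrane protein related to fibrocystin, and *Gpm6a* is also on the list of mesothelial markers above. *Serpini1* was at 3.21 FPKM in colonic PDGFRα+ cells, 1.71 FPKM in ICC and 0.635 FPKM in SMCs, against 14.2 FPKM in colonic SM tissue. The points share tables and the split between tissue and sorted cells, and whether any share animals is not given, so these r are descriptions. Of the other complement members, the C1q chains had the highest r with *C3*, 0.61 to 0.62, and *C1s* the lowest, -0.01. Without the library labelled jejunal PDGFRα+ cells these were 0.45 to 0.48 and -0.03.

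**Figure D3:**
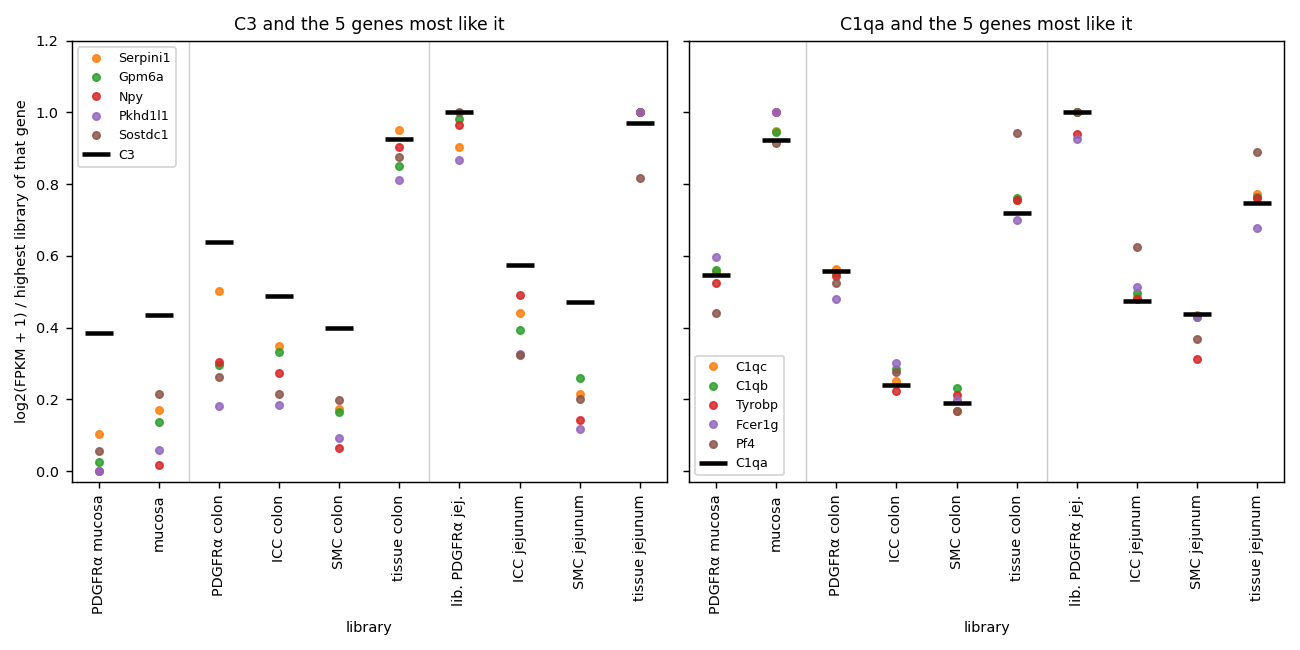
log2(FPKM + 1) divided by the highest library of the same gene, for *C3* (left, black bars) and *C1qa* (right, black bars) with the 5 genes most like each (coloured points), over the 10 libraries; 1 library per position. *C3* and its 5 genes are highest in the unsorted muscle tissues and the library labelled jejunal PDGFRα+ cells, and *C1qa* and its 5 genes are also high in mucosa.

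RefSeq's promoter table (GRCm38.p6, a later build than the mm9 of the files) held 5 of the 9 genes, *C3*, *C1s*, *C1ra*, *C1qb* and *C1qc*, and not *C4b*, *Serping1*, *C1qa* and *Cfb*. The 250 bases before each start are shown, as the regulatory sequence beside which members that move together can be read. They were searched on both strands for 5 motifs, and matches are in capitals. The TATA box was searched as TATAAA, which stands in 12.4% of the 32851 windows of this length in the table. The motif of C/EBP factors was searched as TTGCNNAA, found in 9.56% of windows, and that of STAT factors as TTCNNNGAA, found in 7.02%. The core of the PU.1 motif was searched as GAGGAA, found in 23.3%, and the NF-kB motif, found in 7.25%, by its consensus. No match overlapped another. The *C3* window, chr17:57228137-57228386 on the minus strand, is the gene's own region on chromosome 17:

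C3: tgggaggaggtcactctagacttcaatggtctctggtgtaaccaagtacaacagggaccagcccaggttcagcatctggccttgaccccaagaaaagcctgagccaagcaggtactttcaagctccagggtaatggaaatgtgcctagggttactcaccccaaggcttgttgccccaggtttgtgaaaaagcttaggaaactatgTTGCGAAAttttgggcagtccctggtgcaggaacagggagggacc

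Its 1 match is to the C/EBP letters, from -45 to -38 with -1 the last base before the start. A match is a description of letters and no measure of binding.

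*C1s* and *C1ra*, the proteases of the C1 complex, and *Serping1*, their inhibitor, were above tissue in mucosal and colonic PDGFRα+ cells. *C1s* was at 417 FPKM in mucosal PDGFRα+ cells, against 45.7 FPKM in mucosa, and at 140.3 FPKM in colonic PDGFRα+ cells, against 49.6 FPKM in colonic SM tissue. *C1ra* reached 126 FPKM in mucosal PDGFRα+ cells, against 16.3 FPKM in mucosa, and 94.6 FPKM in colonic PDGFRα+ cells, against 19.7 FPKM in their tissue. *Serping1* reached 602 FPKM in mucosal PDGFRα+ cells, against 76.5 FPKM in mucosa, and 2035 FPKM in colonic PDGFRα+ cells, against 173 FPKM in their tissue. The ratios to tissue in mucosa and colon were thus 9.13-fold and 2.83-fold for *C1s*, 7.75-fold and 4.80-fold for *C1ra*, and 7.88-fold and 11.8-fold for *Serping1*. At this level *Serping1* was the 9th most abundant gene of colonic PDGFRα+ cells, and *C1s* ranked 128th in mucosal PDGFRα+ cells.

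At least 4-fold higher than tissue were *C1ra* and *Serping1* in colonic PDGFRα+ cells, 2 of 9 genes, beside 2.08% of all genes. In mucosal PDGFRα+ cells all 3 were, beside 5.5% of all genes. At least 4-fold lower was 1 of 9 genes in colonic PDGFRα+ cells, *C3*, beside 6.18% of all genes, and 3 of 9 in mucosal PDGFRα+ cells, the C1q chains, beside 1.64% of all genes. Colonic SM tissue was also the reference of the contrast that chose *C3*, so the low place of *C3* here is not separate evidence. The median log2 ratio of the 9 genes was -1.02 in colonic PDGFRα+ cells, where the median of all genes was -0.11, and -0.45 in mucosal PDGFRα+ cells, where it was -0.10. Of 10 fibroblast matrix genes 8 were above and 2 below tissue in each of these libraries, with medians of 426% of tissue in colonic and 620.1% in mucosal PDGFRα+ cells. *Fbln1*, which encodes the matrix protein fibulin 1, was at 3666 FPKM in colonic PDGFRα+ cells, against 207 FPKM in colonic SM tissue, and had the highest ratio of the list there. *Mfap5*, which encodes a protein of microfibrils, was at 4.35 FPKM in colonic PDGFRα+ cells, against 26.2 FPKM, and *Pi16* at 2.05 FPKM, against 6.47 FPKM. Their part in the level of the 3 complement genes was not tested.

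In ICC and SMCs all 3 genes were below tissue. Colonic ICC had 34.7 FPKM of *C1s*, 10.4 FPKM of *C1ra* and 100.1 FPKM of *Serping1*, which is 70.0%, 52.8% and 57.8% of colonic SM tissue. *Pdgfra* was at 42.2 FPKM in colonic ICC, against 5.63 FPKM in jejunal ICC, and its part in these levels was not tested. Jejunal ICC had 11.7 FPKM of *C1s*, 4.77 FPKM of *C1ra* and 30.4 FPKM of *Serping1*, the lowest values of the 10 libraries for each. SMCs had 17.3 FPKM of *C1s*, 6.11 FPKM of *C1ra* and 46.1 FPKM of *Serping1* in colon, and 15.8, 5.83 and 42.2 FPKM in jejunum.

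The 3 genes did not keep a fixed proportion. *Serping1* was 14.5 times *C1s* in colonic PDGFRα+ cells and 1.45 times *C1s* in mucosal PDGFRα+ cells, the highest and the lowest such ratio of the 10 libraries. *C1s* was 1.17 to 3.34 times *C1ra*. Over the 10 libraries r of log2(FPKM + 1) was 0.95 between *C1s* and *C1ra*, 0.95 between *C1ra* and *Serping1* and 0.85 between *C1s* and *Serping1*, and 0.98, 0.94 and 0.88 without the library labelled jejunal PDGFRα+ cells. *C1s* and *C1ra* are given 1 shared locus in the files, on chromosome 6 from 124462638 to 124531119 (mm9). There gencode vM1 places *C1ra* and *C1rb* on the plus strand and *C1s* on the minus strand. In it *C1ra* ends at 124473458, before *C1s* begins at 124480363, whereas *C1rb*, from 124462790 to 124531062, overlaps both. The library steps that the study describes include none that marks strand, and a use of strand in quantification is not given. Reads where *C1rb* and *C1s* overlap therefore cannot be assigned with certainty. The windows before their starts on chromosome 6, chr6:124542360-124542609 on the minus strand for *C1s*, listed in RefSeq as *C1s1* and shown for the first of its 2 starts there, and chr6:124512371-124512620 on the plus strand for *C1ra*, read:

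C1s: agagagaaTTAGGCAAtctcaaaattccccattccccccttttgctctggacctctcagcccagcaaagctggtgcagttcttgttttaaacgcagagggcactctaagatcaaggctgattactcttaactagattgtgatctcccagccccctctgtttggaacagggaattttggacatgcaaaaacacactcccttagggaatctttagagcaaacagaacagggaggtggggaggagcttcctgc
C1ra: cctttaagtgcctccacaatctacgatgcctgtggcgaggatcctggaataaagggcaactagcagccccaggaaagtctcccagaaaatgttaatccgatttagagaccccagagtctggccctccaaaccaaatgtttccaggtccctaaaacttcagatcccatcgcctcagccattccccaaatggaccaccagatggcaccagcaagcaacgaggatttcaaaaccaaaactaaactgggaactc

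*C1s* had 1 match to the C/EBP letters, from -242 to -235, and *C1ra* had none to any of the 5 motifs.

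*C1qa*, *C1qb* and *C1qc* encode the chains of C1q and lie next to each other on chromosome 4 (mm9, from 136436044 for *C1qb* to 136454759 for *C1qa*). *C1qa* was at 7.70 FPKM in mucosal PDGFRα+ cells, against 37.4 FPKM in mucosa. It was at 8.12 FPKM in colonic PDGFRα+ cells, 1.57 FPKM in ICC and 1.12 FPKM in SMCs, against 16.2 FPKM in colonic SM tissue. In jejunum it was at 5.56 FPKM in ICC and 4.64 FPKM in SMCs, against 18.2 FPKM in SM tissue, and at 51.2 FPKM in the library labelled jejunal PDGFRα+ cells. The other chains stayed close in every library, *C1qa* at 1.03 to 1.30 times *C1qc* and *C1qb* at 1.04 to 1.67 times *C1qc*. In the 4 sorted libraries of ICC and SMCs the chains held 5.61% to 32.1% of tissue.

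The genes most like *C1qa* were *C1qc* and *C1qb* (r = 1.00 each), followed by *Tyrobp* and *Fcer1g*, adaptors of immune receptors in myeloid cells (r = 0.98 each), and *Pf4*, a chemokine gene (r = 0.94). Macrophage markers were low in the same libraries. In colonic PDGFRα+ cells, ICC and SMCs *C1qa* was at 50.2%, 9.71% and 6.95% of tissue, and 13 macrophage markers at medians of 25.5%, 10.3% and 5.19%. They summed to 37.7, 30.1 and 11.0 FPKM in these libraries, against 102 FPKM in colonic SM tissue, with *Cd163* and *Ptprc* at 0 in SMCs. *Csf1r*, the receptor of a macrophage growth factor, was at 36.3%, 8.59% and 3.85%, and *Cd163*, a scavenger receptor of resident macrophages, at 9.34% in PDGFRα+ cells and 4.71% in ICC. In mucosal PDGFRα+ cells the chains were at 20.6% to 21.0% of mucosa and the macrophage markers at a median of 15.6%. The part of macrophage RNA in these levels was not tested. The windows before the starts of *C1qb*, chr4:136886201-136886450, and *C1qc*, chr4:136892915-136893164, both on the minus strand of chromosome 4, read:

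C1qb: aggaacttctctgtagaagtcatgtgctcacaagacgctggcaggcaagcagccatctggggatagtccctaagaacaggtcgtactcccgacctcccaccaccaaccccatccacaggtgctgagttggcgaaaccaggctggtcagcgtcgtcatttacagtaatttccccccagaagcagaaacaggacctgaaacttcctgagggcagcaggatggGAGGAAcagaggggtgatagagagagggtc
C1qc: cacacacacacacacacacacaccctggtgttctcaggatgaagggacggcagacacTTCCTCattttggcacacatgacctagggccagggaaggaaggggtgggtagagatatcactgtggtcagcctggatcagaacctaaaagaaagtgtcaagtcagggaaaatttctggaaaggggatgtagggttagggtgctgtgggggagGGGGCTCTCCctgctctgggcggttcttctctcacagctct

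Each had 1 match to the PU.1 letters, PU.1 being a factor of myeloid cells, from -30 to -25 in *C1qb* and from -193 to -188 in *C1qc*. *C1qc* also had 1 match to the NF-kB motif, from -41 to -32, whereas a narrower form of that motif, searched first, had no match in these windows.

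ICC against tissue gave lower values for all 9 genes in both organs. At least 4-fold lower were 6 of 9 in colonic ICC, *C3*, *C4b*, *Cfb* and the C1q chains (4.4% of all genes), and 3 of 9 in jejunal ICC, *C3*, *C4b* and *Cfb* (2.72% of all genes). *C3* had the lowest log2 ratio of the 9 in both, -3.89 in colon, 7th lowest of 13105 genes, and -3.55 in jejunum, 3rd lowest of 12742. The median log2 ratio of the 9 genes was -2.63 in colon and -1.91 in jejunum, where the medians of all genes were 0.14 and 0.04. This comparison shares its tissue libraries with that of SMCs, so the comparisons are not separate evidence. In the library labelled jejunal PDGFRα+ cells all 9 genes were above tissue, at 119% to 326%, with none 4-fold apart (1.05% of all genes were, in either direction).

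Between sorted populations, *C3* was 4.64-fold higher in colonic PDGFRα+ cells than in colonic SMCs, *C1s* 8.11-fold, *C1ra* 15.5-fold and *Serping1* 44.1-fold. On the log2 scale 6 of 9 genes were at least 4-fold higher, these 4 with *C1qa* and *C1qc* (5.43% of all genes). Under median ratio scaling 3 were, *C1s*, *C1ra* and *Serping1*, while *C3* was at 1.88, *C1qa* at 1.93 and *C1qc* at 1.95 on the log2 scale. *C4b* differed least, with 3.99 FPKM in PDGFRα+ cells, against 3.59 FPKM in SMCs. Between ICC and SMCs 0 of 9 genes were 4-fold apart in colon (7.07% of all genes, in either direction) or in jejunum (6.02%), a count near those shares, with log2 ratios from -0.54 to 1.10 and from -1.47 to 0.93. The library labelled jejunal PDGFRα+ cells was at least 4-fold higher than jejunal SMCs for 8 of 9 genes, the exception being *C1s* (5.34% of all genes). The SMC libraries are those whose values chose the genes, so nothing is read from these counts against SMCs. Against colonic ICC, colonic PDGFRα+ cells had *Serping1* 20.3-fold, *C1ra* 9.10-fold and *C1s* 4.04-fold higher.

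Colonic and jejunal SM tissue held similar levels, although the tables were made separately and levels across them carry that limit. *C3* was at 304 FPKM in colonic, against 406 FPKM in jejunal SM tissue, *Serping1* at 173 against 122 FPKM, and the 9 genes lay between 0.695 and 1.42 times jejunum. ICC differed more: colonic ICC had 3.29 times the *Serping1*, 2.96 times the *C1s* and 2.18 times the *C1ra* of jejunal ICC, and 0.283 times the *C1qa*. Across layers, *C3* was at 13.6 FPKM in mucosa, against 304 FPKM in colonic SM tissue, *C1s* at 45.7 against 49.6 FPKM, and *Cfb* at 33.5 against 9.23 FPKM. Mucosal PDGFRα+ cells had 417 FPKM of *C1s*, against 140.3 FPKM in colonic PDGFRα+ cells of the muscle, but 602 FPKM of *Serping1*, against 2035 FPKM. With 1 library each, the order of such neighbours has no replicate behind it.

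The files list 27 transcript variants of the 9 genes, 11 of them known transcripts and 16 assembled from the reads that share a splice junction with a known one. *C3* had 4 variants on chromosome 17 from 57343388 to 57367559 (mm9, minus strand). The known variant of 5133 bp held 41.7% of *C3* in colonic PDGFRα+ cells, 48.3% in ICC and 53.9% in SMCs, against 68.1% in colonic SM tissue. In the library labelled jejunal PDGFRα+ cells it held 74.8%, against 65.5% in jejunal SM tissue. There an assembled variant of 1638 bp was at 1.27 FPKM, against 68.3 FPKM in jejunal SM tissue, although the gene as a whole was higher. For *Serping1*, on chromosome 2 from 84605501 to 84615586, the known variant of 1820 bp held 55.9% in colonic PDGFRα+ cells and 60.8% in colonic ICC, against 38.8% in colonic SM tissue. In mucosal PDGFRα+ cells an assembled variant of 1769 bp was the largest, at 54.1%, against 53.8% in mucosa. The known share of *C1ra* had the widest range, from 13.3% in jejunal ICC to 65.5% in mucosa, and that of *C1qa* the narrowest, from 99.2% to 100%. How fragments are divided between variants is estimated, and its error was not analysed here.

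**Figure D4:**
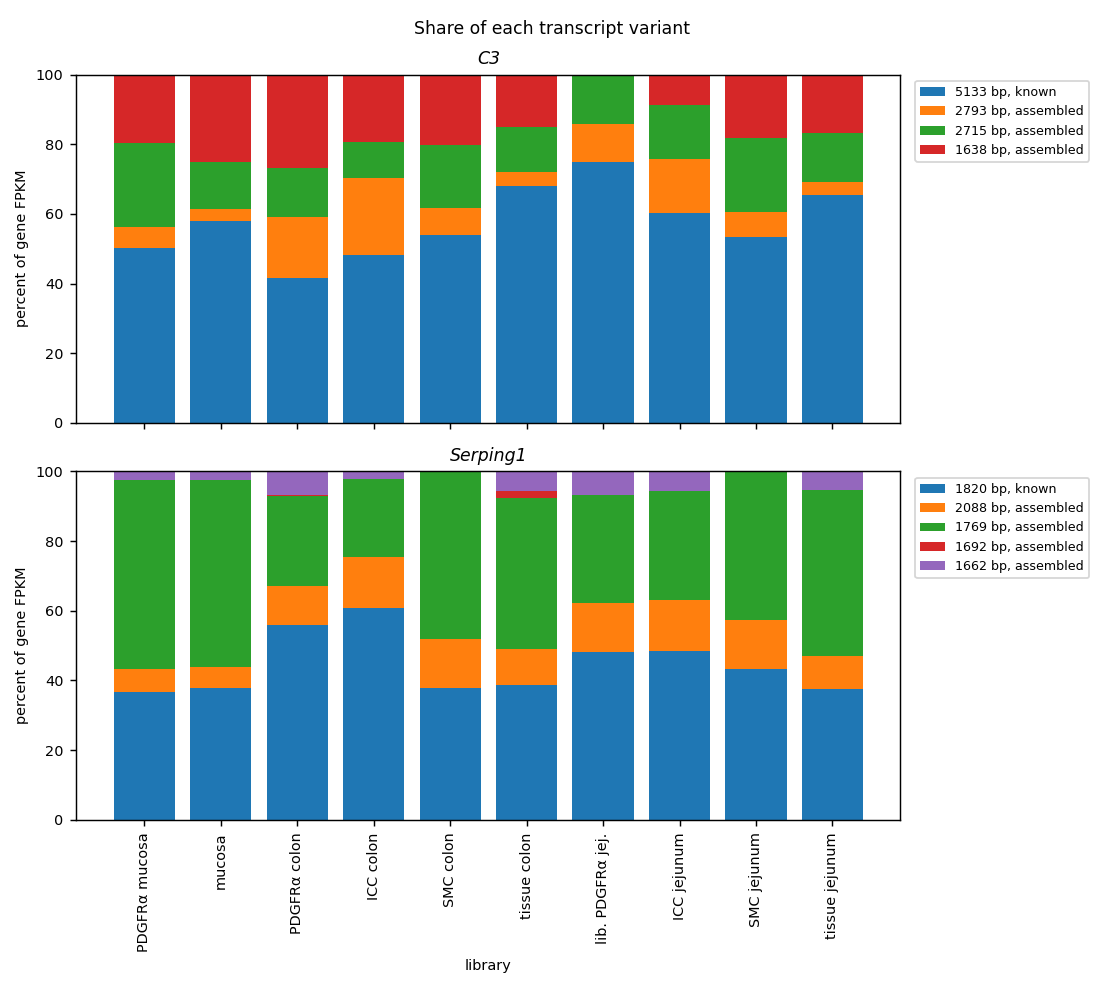
Share of each transcript variant in the summed FPKM of *C3* (top) and *Serping1* (bottom), in percent, for the 10 libraries; colours are variants named by length in bp and as known or assembled, and each bar is 1 library. The known *C3* variant held from 41.7% in colonic PDGFRα+ cells to 74.8% in the library labelled jejunal PDGFRα+ cells, and the known *Serping1* variant from 36.6% to 60.8%.

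Of 50 other complement genes, 41 were listed in a table, 29 stayed under 10 FPKM in every library that had a value, 15 of these under 1 FPKM, and 12 reached 10 FPKM. *C2*, which encodes the partner of C4, had the distribution of *C3*. *C2* was at 1.99 FPKM in colonic PDGFRα+ cells, 0.915 FPKM in ICC and 1.00 FPKM in SMCs, against 14.6 FPKM in colonic SM tissue. *Cfd*, which encodes factor D and is a product of fat cells, was at 0.505, 0.568 and 0.269 FPKM in colonic PDGFRα+ cells, ICC and SMCs, against 18.3 FPKM in colonic SM tissue. *C1rb*, a copy of *C1ra* in the same locus, had the distribution of *C1ra* at a lower level, 21.7 FPKM in mucosal PDGFRα+ cells, against 2.87 FPKM in mucosa, and 14.4 FPKM in colonic PDGFRα+ cells, against 3.78 FPKM in colonic SM tissue. *C1ra* was 5.17 to 7.32 times *C1rb* in the 10 libraries, and reads of these 2 may have been shared out between them.

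Among lectin pathway genes, the levels of 3 stood out in sorted cells. *Masp1*, a protease of that pathway, was at 84.7 FPKM in colonic ICC and 23.6 FPKM in jejunal ICC, against 5.43 and 4.02 FPKM in SM tissue. *Colec10*, a collectin, was at 119 FPKM in jejunal ICC, against 72.2 FPKM in tissue, but at 1.32 FPKM in colonic ICC, against 24.7 FPKM in tissue. *Colec12*, a scavenger receptor with a collectin domain, was at 104 FPKM in colonic PDGFRα+ cells, against 35.9 FPKM in colonic SM tissue. *Masp1* was also at 13.6 FPKM in mucosal PDGFRα+ cells, against 0.502 FPKM in mucosa.

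Regulators on the cell surface were not low in SMCs as *C3* was. *Cd59a*, which blocks the membrane attack complex, was at 129 FPKM in colonic SMCs and 263 FPKM in jejunal SMCs, against 44.7 and 107 FPKM in SM tissue. *Cd55*, which speeds the decay of C3 convertases, was at 45.4 FPKM in colonic PDGFRα+ cells, 11.4 FPKM in ICC and 21.2 FPKM in SMCs, against 28.2 FPKM in colonic SM tissue. *Cr1l*, the Crry regulator of mouse, lay between 19.8 and 41.8 FPKM in all 10 libraries. *Clu*, the soluble regulator clusterin, was at 22.4, 33.3 and 31.6 FPKM in colonic PDGFRα+ cells, ICC and SMCs, against 42.3 FPKM. The 6 listed genes of the membrane attack complex itself were near 0, each under 1 FPKM in every library with a value for it. *C8a* and *C8b* were listed for jejunum only and *C9* for mucosa only, and *C7* of that complex was not listed. Among 9 listed receptor genes *C5ar1*, the receptor of the C5a fragment, alone reached 10 FPKM, with 14.5 FPKM in mucosal PDGFRα+ cells, against 2.83 FPKM in mucosa. Of all 37 other complement genes of the colonic table, 4 were at least 4-fold lower and 0 higher in PDGFRα+ cells than in tissue. Their median log2 ratio was -0.19. Of all genes with 1 FPKM or more in either library, 6.18% were 4-fold lower and 2.08% higher, with a median of -0.11. The 37 were not filtered in this way, and a gene under 1 FPKM in both libraries cannot be 4-fold apart on this scale. Their count and median are therefore not comparable with those of all genes, and nothing is read from them.

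**Figure D5:**
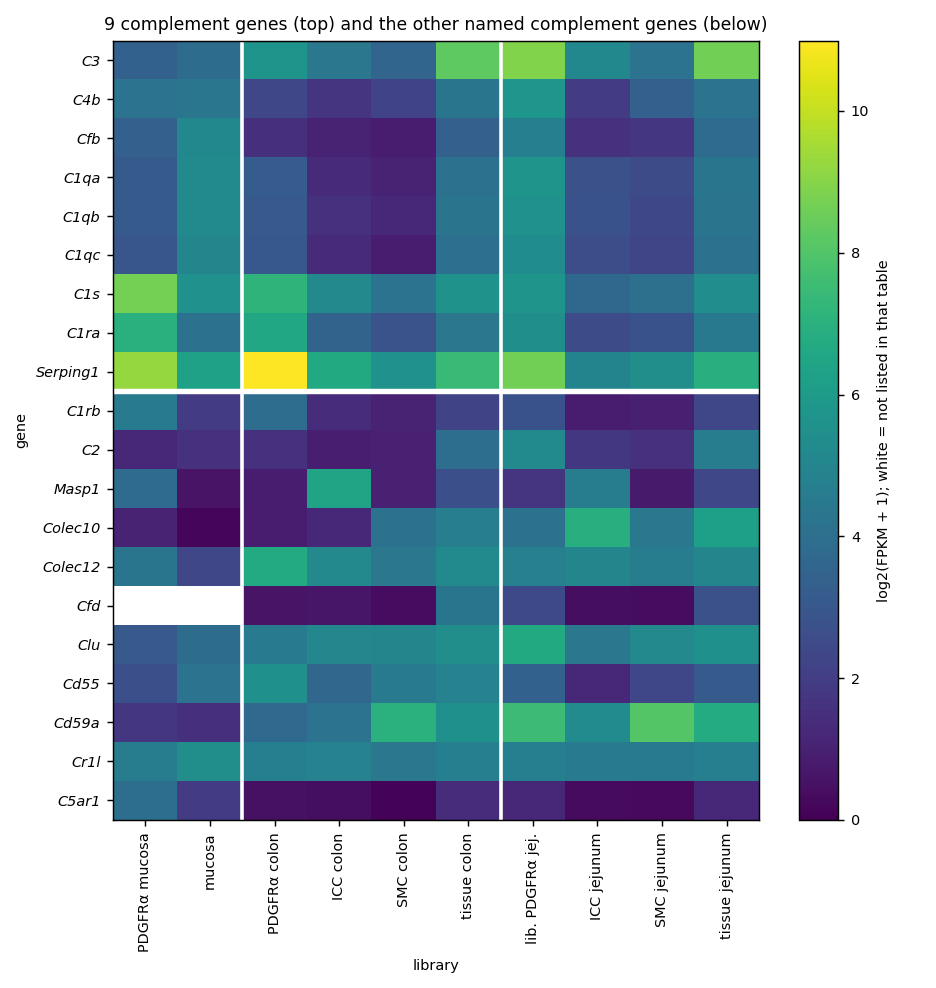
log2(FPKM + 1) of the 9 complement genes (above the white line) and of 11 other complement genes with 10 FPKM or more in a library (below), in the 10 libraries; white cells are genes not listed in the mucosal table, and each cell is 1 library. *Serping1* is brightest in colonic PDGFRα+ cells, *C2* is dark where *C3* is low, *Masp1* is bright in ICC and *Cd59a* in SMCs.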

How the data were processed

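The deposited values are FPKM per transcript variant, which the authors obtained by mapping to mm9 (TopHat 1.4.1) and assembly in Cufflinks 2.0.2. They fill 3 tables, with 70143 jejunal, 68502 colonic and 59061 mucosal variants; submitters' processing notes also name Cuffdiff. Depth and error are not in the files. Here variants under 0.025 FPKM, the cutoff described by the study, were set to 0 and variants were summed per symbol. Ratios are log2 of FPKM + 1, which understates differences of low genes. Shares and medians of all genes cover those with 1 FPKM or more in either library, whereas lists of other complement genes were not filtered. The threshold was 4-fold. Genes were named as members, as other complement genes with 10 FPKM or more in a library, as the 5 genes most like *C3* and *C1qa*, as neighbours of *C3* in the ranking, or as markers; 1 other complement gene that met the rule is counted but not reported here. The members and lists were chosen with earlier results of these data known. With 1 library per condition no test was run. The ratio step was tested on simulated data. Alternatives were no cutoff, a cutoff of 0.1 FPKM, a pseudocount of 0.1 FPKM, TPM, median ratio scaling, known variants only, other filters and Spearman's rho; likeness without the library labelled jejunal PDGFRα+ cells was added after seeing the data. Promoter sequences are RefSeq's (GRCm38.p6) and strands gencode vM1's on mm9; positions on mm9 are those of the deposited tables. Computations used pandas 2.3.3 and numpy 2.4.6 under Python 3.11.15, with plots by matplotlib 3.10.9.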

Additional observations from a re-analysis of the deposited data

Results flagged for a closer look

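For 6 genes the PDGFRα+ cell library stood below tissue in colon and above tissue in jejunum, and with 1 library on each side the difference was not tested. The colonic log2 ratio minus the jejunal one was -2.82 for *C3* (-2.56 and 0.25), -3.55 for *C4b* (-1.97 and 1.58) and -2.74 for *Cfb* (-1.84 and 0.90). It was -2.35 for *C1qa* (-0.91 and 1.44), -2.45 for *C1qb* (-1.15 and 1.30) and -2.23 for *C1qc* (-1.02 and 1.21). All 6 rest on the library labelled jejunal PDGFRα+ cells, whose *Pdgfra* level of 34.0 FPKM was below the 57.0 FPKM of jejunal SM tissue.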

How the results depend on the processing

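Counts of members 4-fold apart stayed within 1.5 times in 60 of 66 recomputations over the 11 comparisons. The exceptions were jejunal SMCs over tissue, with 4 genes at a pseudocount of 0.1 FPKM and 5 with TPM in place of 2, and colonic PDGFRα+ cells over tissue, with 5 genes under either setting in place of 3. The library labelled jejunal PDGFRα+ cells had 1 gene 4-fold from tissue with known variants only in place of 0, and colonic PDGFRα+ cells over SMCs had 3 under median ratio scaling in place of 6. Of 594 recomputed log2 ratios 578 moved by less than 1.5-fold and no ratio of a gene 4-fold apart changed sign. Ratios of ICC to SMCs near 0 did: *C1ra* and *Cfb* in jejunum with TPM, and *C1qa*, *C1qb* and *Cfb* in colon under median ratio scaling, as did *C4b* in colonic PDGFRα+ cells over SMCs. TPM moved the median log2 ratio of all genes by -0.21 to 0.35 and median ratio scaling by -0.44 to 0.24. With known variants only, *C3* in colonic PDGFRα+ cells was at 0.102 of tissue in place of 0.166. No paired analysis was possible because each condition has 1 library, and for the same reason no replicate could be left out.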
